A study of Bos taurus with 8 samples.

Results

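Transcripts of 9 genes of sugar-phosphate interconversion and glycogen metabolism were measured in Holstein and Jersey embryos. The genes are the phosphoglucomutases PGM1, PGM2 and PGM3, the UDP-glucose pyrophosphorylase UGP2, the glycogen-building proteins GYG1, GYS1 and GBE1, and the glycogen phosphorylases PYGL and PYGB. Every probe of the EmbryoGENE bovine array whose annotated symbol, or an older synonym of it, named one of these genes was taken, which gave 9 probes of 43794, 1 for each gene. The array annotation names 15216 genes in all. The set was drawn up around PGM2, which was chosen by its p in the comparison of breeds on these same arrays, where it was among the smallest. The other 8 genes were added for their function. The breed comparison is therefore given for all 9 genes as a description, with no test.

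Embryos recovered from the uterus by flushing, 6 days after insemination, were compared between Holstein, labelled as having good cryotolerance, and Jersey, labelled as performing poorly after freezing. Each of 8 arrays carried both breeds, and 4 replicates per breed were each hybridised in both dye orientations, Holstein in Cy5 on 4 arrays and Jersey in Cy5 on the other 4. Donors of both breeds had follicles over 8 mm aspirated, received 400 mg of follicle-stimulating hormone in decreasing doses and 500 µg of a prostaglandin analogue near the end of that course, and pooled semen was used for insemination. The source names of the samples carry the words blast and invivo, and no untreated or frozen embryos were among the samples analysed here. How many embryos or donors stand behind a replicate is not given in the sources used here. The p-values measure only the spread between these replicates, which may be technical.

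Glycogen is the branched glucose store of animal cells. Its synthesis starts from glucose 6-phosphate, which a phosphoglucomutase turns into glucose 1-phosphate, and UGP2 joins that to UTP to make UDP-glucose. Glycogenin primes a chain, glycogen synthase lengthens it and the branching enzyme adds side chains, while phosphorylases release glucose 1-phosphate again. The mutases serve other routes as well: PGM2 acts mainly on pentose phosphates, linking nucleoside breakdown to the pentose phosphate pathway, and PGM3 works in the synthesis of UDP-N-acetylglucosamine, the donor sugar for protein glycosylation. Early cattle embryos are known to raise their use of glucose around compaction and blastocyst formation.

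Values below are log2 intensities, or log2 ratios of Holstein over Jersey, so that a ratio below 0 means a higher signal in Jersey. The 2 arrays of a dye swap were averaged to a pair, and the 4 pairs are the replicates. A probe was taken as above background where its signal was more than 2 SD over the mean of its array's 153 negative control spots. Intensities of different probes are not on a common scale and are compared only within a gene.

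Between 47.6% and 63.2% of probes were above background in Cy5 and 69.4% to 80.9% in Cy3 on 7 arrays, but 41.9% in Cy5 and 42.9% in Cy3 on the remaining array, which carried Holstein in Cy5 and belongs to pair 4. For each member the means with a pair left out are given with its values. Of 10 blastocyst markers 9 had a probe, and 6 of them (KRT8, KRT18, TFAP2C, POU5F1, NANOG and GATA3) were above background for both breeds on all 8 arrays, as were 0 of the 3 oocyte markers. Of those, GDF9 was above background on 0 arrays for Holstein and 1 for Jersey, ZP3 on 5 and 3, and BMP15 on 7 and 5. NANOG varied between pairs, at 1.97, -1.58, 2.12 and -0.92. The haemoglobin probe of HBG stood at -4.22 and -3.84 in pairs 1 and 2 and at 0.13 and 0.16 in pairs 3 and 4. The X-linked RNA XIST was lower in Holstein in every pair, at -3.22, -3.43, -3.52 and -1.56. In bulk embryos, fewer cells of a type and less RNA per cell cannot be told apart.

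All 9 members passed the filter on dim probes, which asked for a signal above background in either breed on at least 4 arrays. For 6 of them, PGM1, PGM2, PGM3, UGP2, GYG1 and PYGB, both breeds were above background on all 8 arrays. All 9 are autosomal genes according to RefSeq (ARS-UCD2.0). No member spot reached the scanner ceiling. The mean ratio was below 0 for 5 members and above 0 for 4, where 49.3% of all kept probes were below 0, and the median of the members was -0.01 against 0.00 for all kept probes. Only PGM2 had a mean further than 0.25 from 0.

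PGM2 (probe EMBV3_11009, chromosome 6), the phosphopentomutase, gave lower signals in Holstein than in Jersey throughout. Its log2 intensity had a lowest, median and highest value of 9.55, 10.13 and 10.60 in Holstein, against 11.05, 11.39 and 11.64 in Jersey. The ranges of the breeds did not overlap. Across all kept probes, 0.702% showed Holstein wholly below Jersey in this way, and PGM2 was the only member to do so. The ratio was -0.99 in pair 1, -1.29 in pair 2, -1.30 in pair 3 and -1.58 in pair 4, with a mean of -1.29 ± 0.12 (SE, n = 4 pairs), or a signal 2.44-fold higher in Jersey. On single arrays it lay between -1.67 and -0.70 and was below 0 on 8 of 8, where 2.72% of all probes were. Of the 32139 probes kept, 98 (0.305%) had a lower mean ratio. Because PGM2 led to the choice of these genes, its place in that order and its lack of overlap restate the choice and support nothing further.

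The PGM2 difference was present on both slides, at -1.14 on slide 1 and -1.44 on slide 2. Without pair 4, which holds the array with few probes above background, it was -1.19, and without pair 1 it was -1.39, the ends of the range with each pair left out. Red cell markers had means below 0 as well, but not a ratio below 0 in every pair. On pair means 0 of the 4 tested passed 0.05 (smallest limma adjusted p = 0.26). Of 5 listed, 4 had a probe and 2 were above background for both breeds on all arrays, and their summed intensity was 834 to 1120 in Holstein, against 1410 to 5350 in Jersey. The ratio of HBB was -2.24, -1.79, -0.02 and 0.05 in pairs 1 to 4, that of HBA -1.12, -0.80, -0.04 and -0.43, and that of ALAS2, the X-linked enzyme that starts haem synthesis in red cells, -0.33, 0.44, -1.66 and -0.95. HBG and XIST are given above. The part of red cell RNA and of XIST in the PGM2 ratio was not tested. The Holstein signal of PGM2 spread more over pairs (SD 0.370) than the Jersey signal (SD 0.161).

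**Figure D1:**
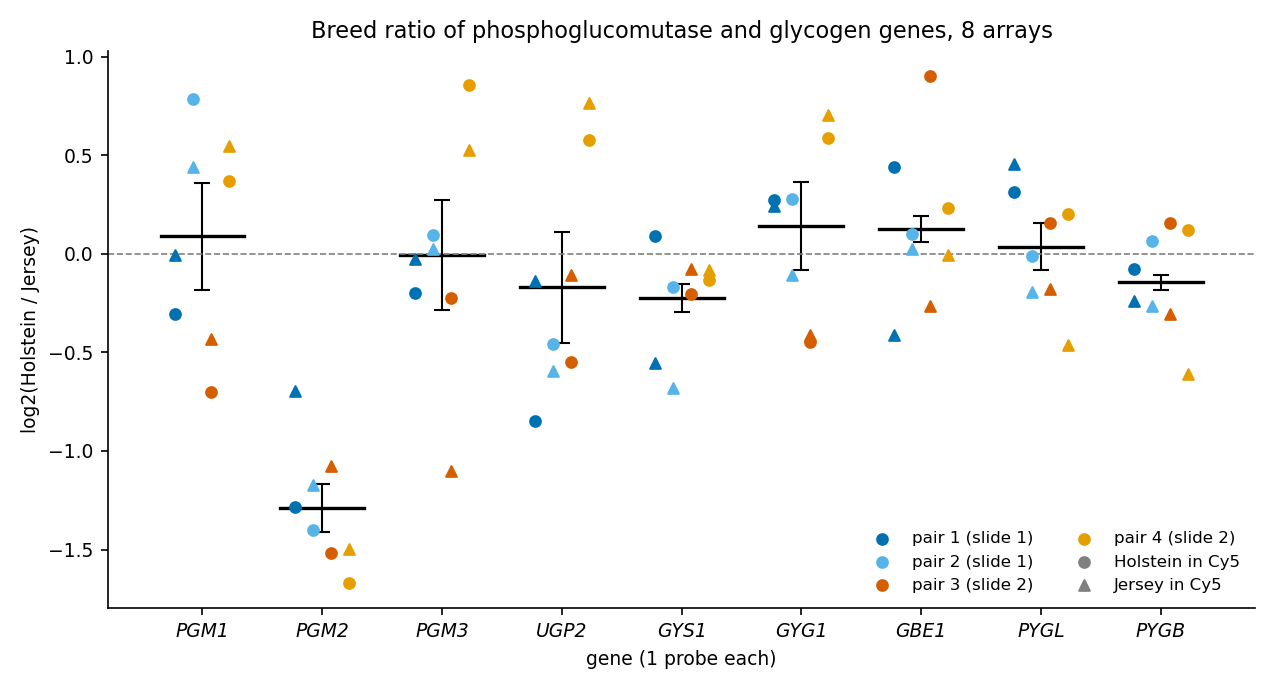
Log2 ratio of Holstein over Jersey (axis in log2 units) of the 9 genes, with a point for each of 8 arrays coloured by pair and shaped by dye orientation, and the mean and SE over 4 pairs. All PGM2 points lie between -1.67 and -0.70, while every other gene has arrays on both sides of 0.

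PGM1 (EMBV3_40269, chromosome 3), the main enzyme that interconverts glucose 1-phosphate and glucose 6-phosphate, showed no common direction. Its Holstein log2 intensity had a lowest, median and highest value of 13.73, 14.33 and 14.77, against 13.98, 14.20 and 14.43 in Jersey. The Holstein range enclosed that of Jersey. The ratio was -0.16 in pair 1, 0.61 in pair 2, -0.56 in pair 3 and 0.46 in pair 4, with a mean of 0.09 ± 0.27 (SE, n = 4 pairs). With each pair left out in turn the mean ran from -0.09 without pair 2 to 0.305 without pair 3, and was -0.04 without pair 4. The pairs disagreed although the 2 arrays of each pair gave the same sign, and the pair SD of the Holstein signal was 0.483 against 0.145 in Jersey.

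PGM3 (EMBV3_33275, chromosome 9), the N-acetylglucosamine-phosphate mutase, also split by pair. Its log2 intensity had a lowest, median and highest value of 8.76, 9.23 and 10.003 in Holstein, against 8.91, 9.16 and 10.015 in Jersey, so that the ranges nearly coincided. The ratio was -0.11, 0.06, -0.66 and 0.69 in pairs 1 to 4, with a mean of -0.01 ± 0.28 (SE, n = 4 pairs). With a pair left out the mean ran from -0.24 without pair 4 to 0.21 without pair 3. The lowest single array stood at -1.10 and the highest at 0.85.

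UGP2 (EMBV3_16748, chromosome 11), which makes UDP-glucose, had 1 pair opposed to the other 3. Its log2 intensity had a lowest, median and highest value of 11.40, 12.10 and 12.46 in Holstein, against 11.63, 12.31 and 12.51 in Jersey, with overlapping ranges. The ratio was -0.49, -0.53 and -0.33 in pairs 1 to 3 and 0.67 in pair 4. Its mean was -0.17 ± 0.28 (SE, n = 4 pairs), and with a pair left out it ran from -0.45 without pair 4 to -0.05 without pair 2. Both arrays of pair 4 were above 0, at 0.58 on the array with few probes above background and 0.76 on its dye swap.

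**Figure D2:**
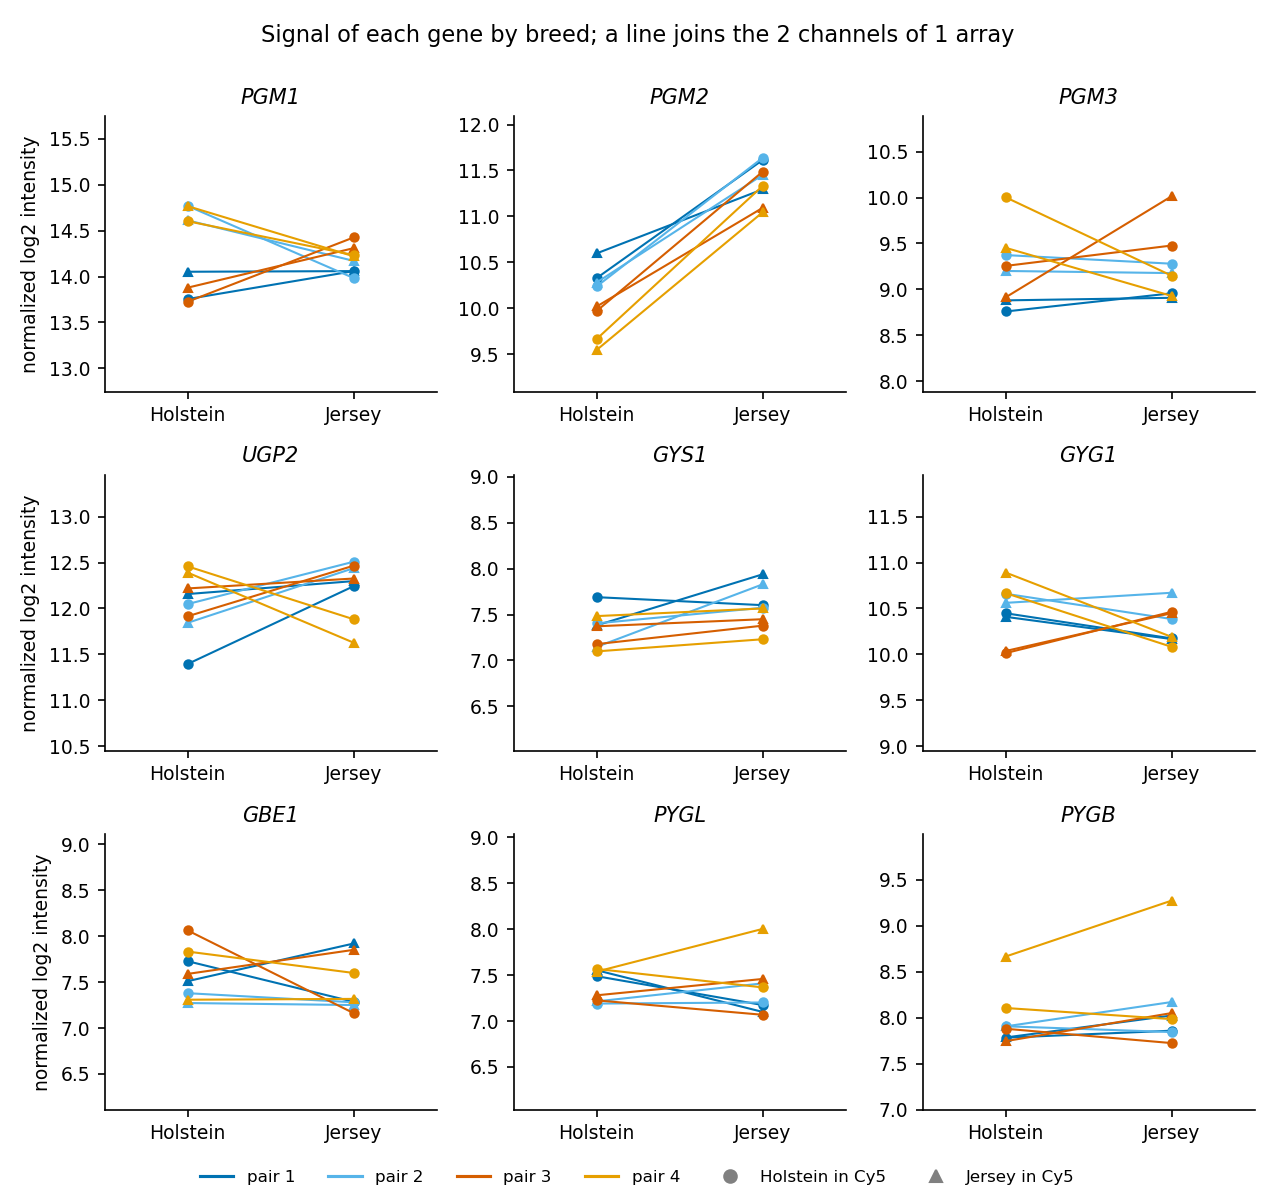
Log2 intensity of each of the 9 genes in Holstein (left) and Jersey (right) on 8 arrays, with lines joining the breeds of an array, colour for the pair, point shape for the dye orientation and a separate vertical scale for each gene. The PGM2 points of Holstein (9.55 to 10.60) lie below all those of Jersey (11.05 to 11.64), and the other 8 genes overlap.

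Glycogen chains are primed by GYG1 (EMBV3_43139, chromosome 1), glycogenin. Its log2 intensity had a lowest, median and highest value of 10.01, 10.50 and 10.89 in Holstein, against 10.08, 10.29 and 10.67 in Jersey. The ratio was 0.26, 0.08, -0.43 and 0.64 in pairs 1 to 4, a mean of 0.14 ± 0.22 (SE, n = 4 pairs). The breeds overlapped, and with a pair left out the mean ran from -0.03 without pair 4 to 0.33 without pair 3.

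GYS1 (EMBV3_14478, chromosome 18), the glycogen synthase of muscle and many other tissues, was above background on 6 of 8 arrays for Holstein and 7 for Jersey. Its log2 intensity had a lowest, median and highest value of 7.10, 7.38 and 7.69 in Holstein, against 7.23, 7.57 and 7.94 in Jersey. The breeds overlapped. All 4 pairs were below 0, at -0.23, -0.43, -0.14 and -0.11, with a mean of -0.23 ± 0.07 (SE, n = 4 pairs), and 7 of 8 arrays shared that sign. The mean was -0.27 without pair 4 and -0.16 without pair 2, the ends of the range.

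GBE1 (EMBV3_43087, chromosome 1), the branching enzyme, was above background on 8 arrays for Holstein and 5 for Jersey. Its log2 intensity had a lowest, median and highest value of 7.27, 7.55 and 8.06 in Holstein, against 7.16, 7.30 and 7.92 in Jersey, again with overlap. The 4 pairs were above 0, at 0.02, 0.06, 0.32 and 0.11, a mean of 0.13 ± 0.07 (SE, n = 4 pairs). Single arrays ran from -0.41 to 0.90, and 3 of 8 were below 0. The mean was 0.13 without pair 4, and the range over pairs left out was 0.06 without pair 3 to 0.16 without pair 1. It was 0.04 on slide 1 and 0.22 on slide 2.

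Glycogen breakdown was represented by PYGL (EMBV3_22214, chromosome 10), the liver form of phosphorylase, and PYGB (EMBV3_33625, chromosome 13), the brain form. PYGL was above background on 7 arrays for Holstein and 6 for Jersey, with a lowest, median and highest log2 intensity of 7.19, 7.38 and 7.57 in Holstein, against 7.07, 7.28 and 8.00 in Jersey. Its ratio was 0.38 in pair 1 and -0.10, -0.01 and -0.13 in pairs 2 to 4, a mean of 0.03 ± 0.12 (SE, n = 4 pairs). Only pair 1 was above 0, and the breeds overlapped. The mean turned to -0.08 without pair 1 and was 0.09 without pair 4.

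For PYGB the log2 intensity had a lowest, median and highest value of 7.75, 7.89 and 8.67 in Holstein, against 7.72, 8.00 and 9.28 in Jersey. The highest value of each breed came from the same array, the dye swap of pair 4 with Jersey in Cy5. The ratio was below 0 in all 4 pairs, at -0.16, -0.10, -0.08 and -0.24, with a mean of -0.14 ± 0.04 (SE, n = 4 pairs). Single arrays were split, with 5 below 0 and 3 above, and the mean ran from -0.17 without pair 3 to -0.11 without pair 4.

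In total 4 of the 9 members kept 1 sign over the 4 pairs, where 22% of all probes did. PGM2, GYS1 and PYGB were below 0 in every pair (11.5% of all probes) and GBE1 above 0. On all 8 arrays only PGM2 kept 1 sign, where 5.03% of all probes did. PGM2 was chosen by this same comparison, so its part in these counts restates that choice.

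PGM1, PGM3, UGP2 and GYG1 differed more between pairs than most probes did. The SD of the ratio over the 4 pairs was 0.547 for PGM1, 0.557 for PGM3, 0.566 for UGP2 and 0.446 for GYG1, and the median over all kept probes was 0.192. These values exceeded those of 91.6%, 92.0%, 92.4% and 86.1% of kept probes. Among probes of like brightness, within 0.5 log2 units, the shares were 82.4%, 82.3%, 85.4% and 68.3%. PYGL had an SD of 0.239, above 60.5% of all probes and 81.3% of those of like brightness. PGM2 had an SD of 0.241, above 61.1% of all probes and 27.0% of those of like brightness. PGM1, PGM3, UGP2 and GYG1 were each below 0 in pair 3 and above 0 in pair 4. This was read after these genes were picked for their spread. The share of all probes with these signs is not given here, so no shared behaviour is read from it.

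**Figure D3:**
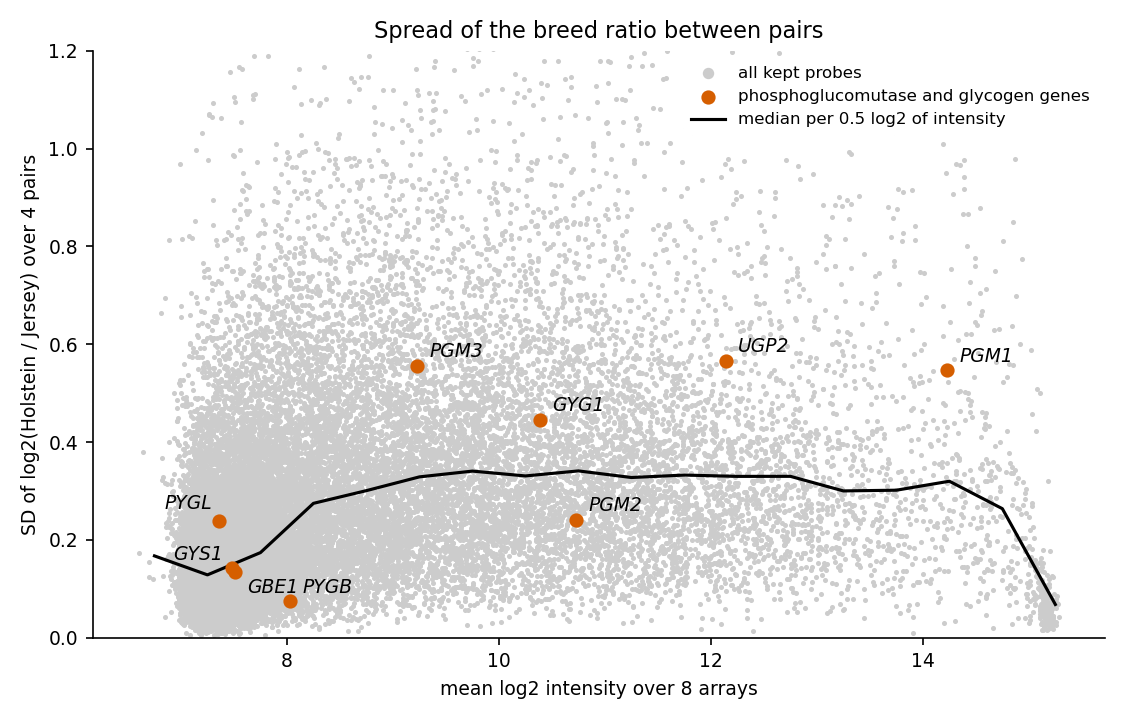
SD of the log2 ratio of Holstein over Jersey over 4 pairs (vertical axis, ending at 1.2, with the few probes above it not shown) against mean log2 intensity (horizontal axis) for all kept probes in grey and the 9 genes in orange, with a black line for the median per 0.5 log2 units of intensity. PGM1, PGM3, UGP2 and GYG1 lie at 0.446 to 0.566, above the median of 0.192, and PYGB lies lowest of the 9 at 0.075.

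The dye effect cancels in the breed comparison and was not used to choose the genes. It was tested on the 8 arrays with limma, the pair as a random block, and Benjamini-Hochberg adjustment over all probes. Breed calls of that fit are read below as weaker evidence, and its rate of false dye calls is not known. The dye effect passed 0.05 for 2 of the 9 members, where 27.2% of all probes passed. GBE1 was brighter in Cy5 by 0.29 ± 0.09 (SE; limma adjusted p = 0.0359) and PYGB by 0.21 ± 0.06 (SE; limma adjusted p = 0.0288). Both dye effects were larger in size than the mean breed ratio of the same gene. With median centring in place of loess, PYGB missed the threshold at an adjusted p of 0.0505. PGM2 had a dye effect of -0.18 ± 0.07 (limma adjusted p = 0.0960).

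The breed ratio was also compared between the slides, which carried 2 pairs each. With so few pairs the test had little power, and a lack of calls does not show that the slides agree. Even HBG, at -4.22 and -3.84 on slide 1 against 0.13 and 0.16 on slide 2, was not called. No member differed past 0.05 by limma (adjusted p of 1 for each), and 0% of all probes did. UGP2 had the widest gap among the 9, with -0.51 on slide 1 and 0.17 on slide 2, a difference of 0.68 ± 0.37 (SE) at an unadjusted limma p of 0.134.

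Other genes of the same and neighbouring routes were read from the fit across all probes, by the brightest probe of each gene. Of 70 listed genes 61 had a probe and 55 were tested. On pair means 0 of the 55 passed an adjusted p of 0.05 by limma, as did 0% of all probes, and 17 (30.9%) had an unadjusted p under 0.05, 5 higher and 12 lower in Holstein, against 13.9% of all probes (6.61% higher and 7.34% lower). With 8 arrays and the pair as a random block, limma called 5 of the 55 (9.09%), 2 higher and 3 lower in Holstein, against 3.77% of all probes (1.64% higher and 2.14% lower). These shares of all probes include dimmer probes, while each gene was read by its brightest, so they are not like for like. Shares for probes of like brightness were not computed. The random block applies 1 correlation to all probes. On simulated arrays, whose noise within pairs was not taken from these arrays, it made more false calls than its threshold allows. In direction alone, 20 genes were above 0 and 35 below, with a median of -0.10. Of all kept probes 49.3% were below 0, with a median of 0.00. Without X-linked genes 19 were above 0 and 29 below, with a median of -0.10. The summed red cell markers given above differed between the breeds on these arrays. The brightest probes of the cumulus markers CYP19A1 and INHBA stood at 0.54 and 0.79, with limma adjusted p on pair means of 0.185 and 0.253. The 3 kept probes of CYP19A1 ran from 0.07 to 0.54, and INHBA was above background on 8 arrays for Holstein and 4 for Jersey. FSHR, also listed, was above background on 2 arrays for Holstein and 2 for Jersey and was not kept. The summed intensity of the 3 listed cumulus and granulosa genes was 621 to 948 in Holstein, against 455 to 697 in Jersey. By the brightest probe, 0 leukocyte markers were above 0 and 3 below, and 2 uterine markers were above and 1 below. The 2 kept probes of the leukocyte marker LYZ1 ran from -0.49 to 0.86. The part of all these markers in the list's values was not tested.

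The catalytic subunits of protein phosphatase 1, which activates glycogen synthase and inactivates phosphorylase, among many other substrates, gave 3 of those 5 calls, in opposite directions. PPP1CC (EMBV3_21053, chromosome 17) was higher in Holstein at 0.87, 0.58, 0.63 and 0.48 in pairs 1 to 4, a mean of 0.64 ± 0.09 (SE; random block adjusted p = 0.00519). PPP1CB (EMBV3_02579, chromosome 11) was higher at 0.52, 0.30, 0.29 and 0.72, a mean of 0.46 ± 0.10 (SE; random block adjusted p = 0.0358). PPP1CA (EMBV3_11337, chromosome 29) was lower at -0.78, -0.43, -0.51 and -1.003, a mean of -0.68 ± 0.12 (SE; random block adjusted p = 0.0109). Each of these 3 probes had 1 sign on all 8 arrays, where 5.03% of all probes did. They were named for their small p on these same arrays, so the common sign restates that choice. On pair means their limma adjusted p was 0.0958 for PPP1CC, 0.174 for PPP1CB and 0.136 for PPP1CA. A second PPP1CC probe (EMBV3_41356) was also higher, at 0.55 ± 0.11 (SE; random block adjusted p = 0.0208), while the third (EMBV3_42385) stood at -0.22 ± 0.12 and did not pass (0.341). The second PPP1CA probe (EMBV3_26157) had the sign of the first, at -0.22 ± 0.09, and did not pass (0.221). Averaged over all kept probes of a gene, PPP1CC stood at 0.32 and PPP1CA at -0.45, with limma adjusted p on pair means of 0.198 and 0.161.

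The other calls were lower in Holstein. GPI (EMBV3_15110, chromosome 18), which interconverts glucose 6-phosphate and fructose 6-phosphate, stood at -0.86, -1.09, -0.42 and -0.23 in pairs 1 to 4, a mean of -0.65 ± 0.16 (SE; random block adjusted p = 0.0337). Its mean was -0.97 on slide 1 and -0.33 on slide 2, and its second probe (EMBV3_16007) stood at -0.36 ± 0.09 and its random block adjusted p lay just under the threshold, at 0.05 after rounding. PHKA2 (EMBV3_29674, chromosome X), a regulatory subunit of phosphorylase kinase, stood at -0.73, -0.64, -1.22 and -0.18, a mean of -0.69 ± 0.17 (SE; random block adjusted p = 0.0277). PHKA2 was above background on 7 arrays for each breed. It is X-linked, and XIST was lower in Holstein in the same pairs. The part of XIST in the ratio was not tested. Without X-linked genes 4 of 48 were called.

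These calls changed when pairs were left out. With each pair out in turn, the random block called PPP1CC 3 times of 4, PPP1CA 2 times, GPI and PHKA2 1 time each and PPP1CB 0 times. The list held 1 call without pair 1, 2 without pair 2, 0 without pair 3 and 11 without pair 4, where the shares of all probes called were 1.16%, 1.39%, 0.811% and 6.18%. The 3 remaining genes of smallest p passed with neither fit, with random block adjusted p of 0.112 for EPM2A (laforin, a glycogen phosphatase) at -0.37 ± 0.11, 0.0541 for PRPS1 (a phosphoribosyl pyrophosphate synthetase, X-linked) at -0.69 ± 0.21 and 0.0556 for GNPDA2 (a glucosamine 6-phosphate deaminase) at 0.57 ± 0.18 (SE). PRPS1 was at 0.05 in pair 4 and between -1.22 and -0.66 in the others.

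By group and by the brightest probe of each gene, the random block called 0 of 6 other glycogen enzymes, 1 of 3 phosphorylase kinase genes, 3 of 7 glycogen kinase and phosphatase genes and 0 of 4 related mutases. It called 0 of 12 hexosamine genes, 0 of 6 galactose and UDP-sugar genes, 1 of 11 genes around glucose 6-phosphate and 0 of 6 genes of nucleoside and pentose phosphate use. The share of all probes called in this fit was 3.77%, so a count of 0 in groups of this size is near the background. The last group (UPP1, UPP2, DERA, RBKS, PRPS1 and PRPS2) holds listed neighbours of PGM2, with a median of 0.04, and 3 of its 6 genes were above 0. Of 8 genes listed for it, PNP and TYMP had no probe. The hexosamine group, to which PGM3 belongs, had a median of -0.16, with 4 genes above 0 and 8 below. Less bright probes of 2 further genes, named after their values were seen, passed with the random block. For the X-linked RENBP, an N-acetylglucosamine epimerase, they were EMBV3_12241 at -0.68 ± 0.11 (adjusted p = 0.0203) and EMBV3_42088 at -1.19 ± 0.27 (0.0164), where its brightest probe was at -0.46 ± 0.15 (0.0738). For GALT, the uridylyltransferase of galactose use, EMBV3_40379 was at -0.33 ± 0.07 (0.0498), and its brightest probe at -0.34 ± 0.11 (0.0848; all SE).

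**Figure D4:**
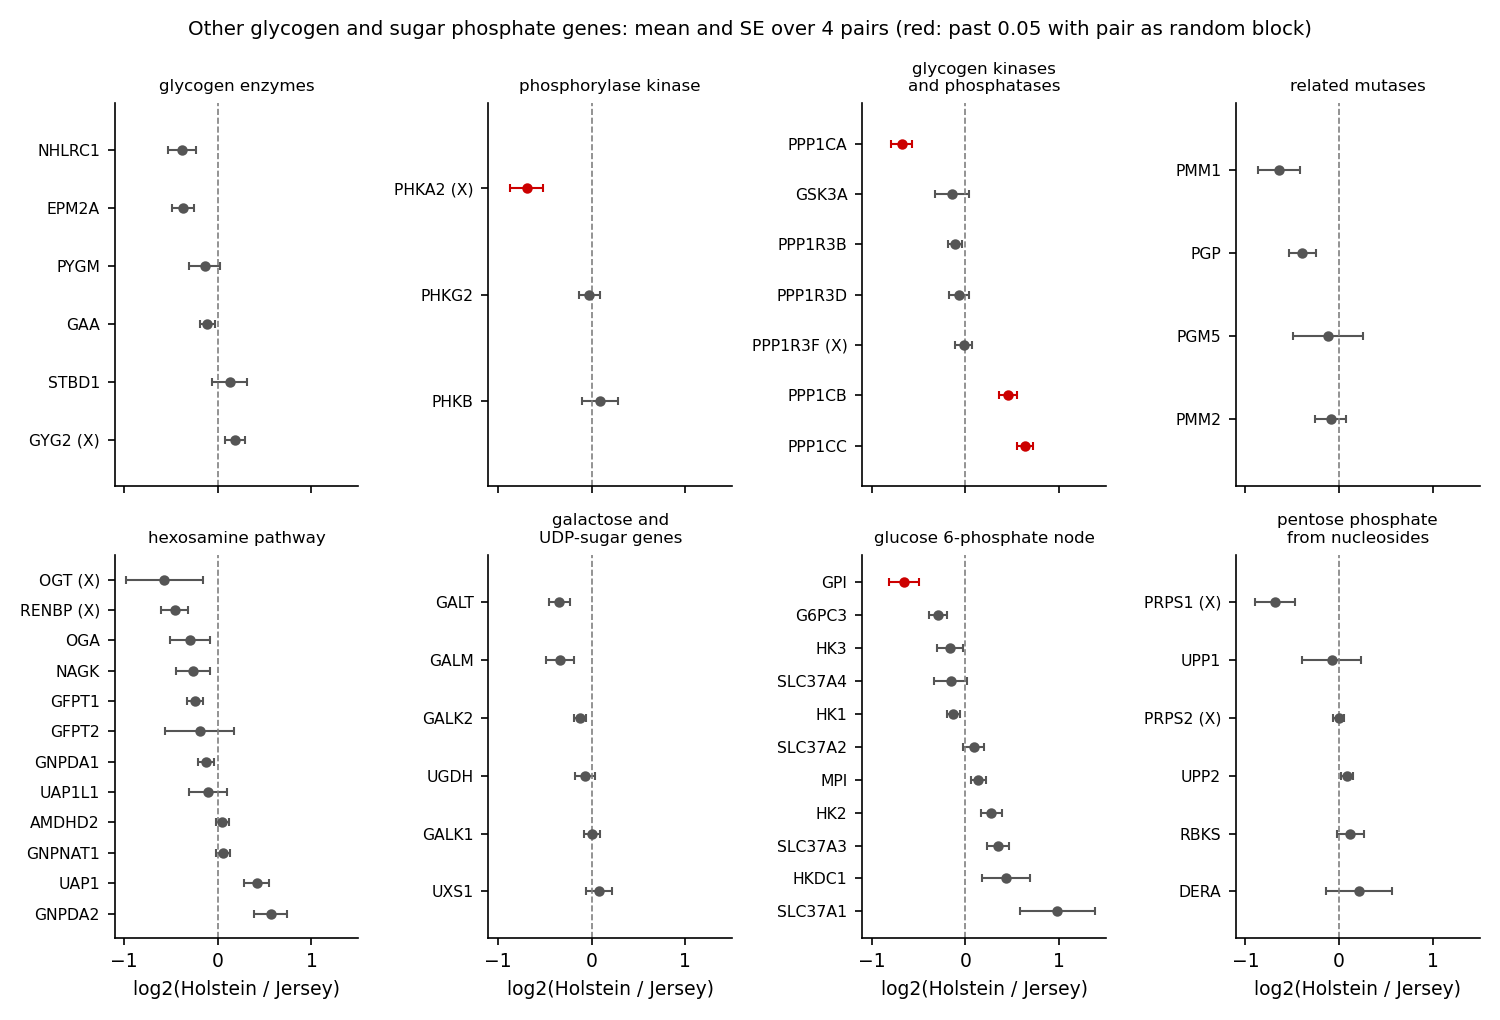
Mean log2 ratio of Holstein over Jersey with SE over 4 pairs for the 55 other genes of glycogen and sugar-phosphate metabolism, by the brightest probe of each gene, in 8 groups, red where the random block fit passed 0.05. The 5 red genes are PPP1CA, GPI and PHKA2 below 0 and PPP1CB and PPP1CC above 0.

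The genes whose ratios were most like those of PGM2 were found by the root mean square difference over the 8 arrays, among 6707 genes above background for both breeds on all arrays. BCAP31 (chromosome X), a membrane chaperone of the endoplasmic reticulum, differed by 0.38, ALDH4A1 (chromosome 2), a mitochondrial enzyme of proline breakdown, by 0.42, and CBX1 (chromosome 19), a heterochromatin protein, by 0.44. LOC777594 (chromosome 29) differed by 0.45 and the antiviral membrane protein IFITM3 by 0.46, and the median over all searched genes was 1.40. Their mean ratios were -0.999 for BCAP31, -0.97 for ALDH4A1, -1.09 for CBX1, -0.91 for LOC777594 and -0.93 for IFITM3. PGM2, at -1.29, lay below all 5. These arrays share their RNA in pairs, so the likeness describes 4 replicates and no more. The search used the breed comparison by which PGM2 was chosen. Genes with a ratio near 0 therefore lay far from PGM2, and the median over all searched genes restates that choice.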

How the data were processed

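Embryo RNA was isolated by a PicoPure kit, amplified by T7 polymerase and then coupled to Cy3 or Cy5, per the labels' protocols. The deposited scanner files give raw intensity of foreground and local background per spot in both channels, with no correction, and a deposited mark of another kind (0 or 1) for ignored spots, of which there were 131 over all arrays. The deposited value table gives log2 ratios whose steps are not given in the sources used here; its medians lay between -0.0364 and 0.0251. Set against the scanner files it ran as Jersey over Holstein, with correlations of -0.983 to -0.970 across probes, and it was used, sign turned, as an alternative only.

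The local background median was taken off the foreground mean by normexp (offset 50) and loess was applied within arrays, using limma 3.58.1 under R 4.3.3, with control and ignored spots at weight 0. Per-channel intensities were further set to a common average with Aquantile. A probe was kept when above background in either breed on at least 4 of 8 arrays, which left 32139. The labels do not name the dye-swap pairs: of 24 matchings of opposite orientation, the 1 with the highest residual correlations was taken (0.46 to 0.71 within pairs, -0.36 to -0.02 otherwise), which is neighbouring arrays of a slide. The choice by this measure does not test that the pairs are right. Pair means were tested by lmFit and eBayes of limma, adjusting p over all kept probes by Benjamini-Hochberg. The alternative fit used 8 arrays with a dye term and pair as random block (consensus correlation 0.31, 32033 probes). SEs of the members are plain SD over the square root of n; all other SEs are from the fit. On simulated data the pair means kept false calls near the threshold and the random block did not. The simulated noise between the arrays of a pair was set alike for all probes and not taken from these arrays. The rate of false calls on the real arrays is therefore not known, and the calls of the random block are read as weaker evidence. Precision is limited by the number of arrays.

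Of 21790 probes with a symbol, 20025 matched RefSeq (ARS-UCD2.0) by symbol, 1524 by synonym and 241 not at all. Outside the 9 genes, those named are the listed pathway genes called in either fit or among the 8 of smallest unadjusted p, and the 5 genes most like PGM2. The members and lists were chosen with earlier results of these data known. Alternatives covered background correction, normalization, dim probes, pairs left out, slide, probe choice and the value table. Leaving out pairs under the random block, and leaving out X-linked genes, were added after seeing the data. No sample column was left unassigned (0).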

Additional observations from a re-analysis of the deposited data

Results flagged for a closer look

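In UGP2 the ratio of Holstein over Jersey in pair 4, 0.67, stood far from the other 3 pairs, which lay between -0.53 and -0.33. The gap to the nearest, relative to the whole range, was 0.835, above Dixon's critical value for 4 values. Of 22 items examined this way 1 was beyond it, and chance gives about 1 in 20.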

How the results depend on the processing

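PGM2 lay between -1.44 and -1.14 in all 16 alternatives. Several of these cannot change the mean of a member with 1 probe: the probe filters, the random block, the slide term and averaging over probes. They are included in the counts of alternatives below without testing the members. Signs of the mean changed for PGM1 in 3 alternatives of 16, PGM3 in 6 of 16, UGP2 in 1 of 16 (0.17 on slide 2 alone), GYG1 in 1 of 16 and PYGL in 2 of 15, and not for GYS1, GBE1 (0.04 to 0.22) or PYGB. On pair means the count of probes past an adjusted p of 0.05 was 0, and it was 48 among the 14019 probes above background for both breeds on all arrays, where fewer probes were tested. It was 0 to 2 with a pair left out, 2 without pair 4. The replicate block gave 1209 probes, and 373, 444, 260 and 1983 without pair 1, 2, 3 and 4. For the other pathway genes the count of 0 became 5 under the replicate block, 4 without X-linked genes, and 0 to 11 with a pair left out; it stayed 0 under the other alternatives. Their median of -0.10 stayed below 0, between -0.13 and -0.04, and moved over 1.5 times on slide 1 alone (-0.04), with the value table (-0.05), with scaling between arrays (-0.06), without background correction (-0.06) and without pair 1 (-0.07). With all probes of a gene averaged, PPP1CC moved to 0.32 and PPP1CA to -0.45. The members past the dye threshold numbered 2, but 1 with median centring. The causes of these shifts were not tested. Signals near background limit GYS1, GBE1 and PYGL. They also limit EPM2A, above background on 4 arrays for Holstein and 6 for Jersey, and PHKA2, on 7 and 7. PHKA2 stood at -0.50 without background correction and at -0.84 with a normexp offset of 10, and EPM2A at -0.22 and -0.50.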
